A study of Homo sapiens with 31 samples.

Results

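The genes described here are the collagens: every protein-coding gene whose symbol is COL, a number, A and a number. There were 44 of them among the 57992 genes of the steady-state tables, and the same 44 among the 43682 genes of the actinomycin D tables. Collagens are extracellular proteins whose chains wind into a helix of several strands. Fibrillar collagens build the fibrils of connective tissue, collagen IV the sheet of basement membranes, FACIT collagens decorate fibrils, and collagens XIII and XVII cross the cell membrane. In pancreatic cancer the dense collagen of the tumour is known to come largely from stellate cells and fibroblasts, and the cancer cells add basement membrane and some fibrillar chains of their own.

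The study used PANC-1, an established human pancreatic ductal cancer cell line, and KHSRP, an RNA-binding protein known for promoting the decay of transcripts with AU-rich elements. The steady-state set held 3 libraries with the genotype KHSRP knockout (KO) and 3 titled NC with the genotype WT, all untreated as far as the labels say. The actinomycin D set held 20 libraries labelled PANC-1, 2 for each of KO and NC at 0, 2, 4, 6 and 8 h of actinomycin D, which blocks transcription. The labels leave out what NC stands for, whether the knockout is 1 clone, and whether replicates were grown apart; p-values therefore cover the spread among these libraries alone, and that may be technical. The 5 crosslinking samples (3 miCLIP and 2 PAR-CLIP) were not analysed here. The RNA libraries were made to look at how KHSRP acts on tumour progression, and the timed ones at its effect on how long transcripts last.

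The depth was 33706200 to 43278100 counts in the steady-state libraries and 19177900 to 25768100 in the actinomycin D libraries. KHSRP stood at 9.49 to 10.6 CPM (a library's counts over its TMM-scaled total) in the steady-state KO libraries and at 64.4 to 65.7 in NC. Among the libraries given actinomycin D, the 10 labelled KO had 134 to 157 CPM of it and the 10 labelled NC had 375 to 459.5 CPM. CDKN2A, a tumour suppressor whose locus PANC-1 is known to lack, had 2728 to 5476 counts in each actinomycin D library labelled NC, 0 in each labelled KO, 6 in each steady-state KO library and 0 in each steady-state NC library. Of 7 ductal epithelium markers all 7 had a median of at least 1 CPM in both steady-state groups and in the actinomycin D libraries labelled KO, against 4 in those labelled NC, where CDH1, EPCAM and KRT19 were below it. KRT7 went the other way, at 541 to 961 CPM in the actinomycin D libraries labelled NC against 8.61 to 19.1 in those labelled KO. KRT8, KRT18 and MUC1 overlapped between these labels. KRT19 had 0 to 15 counts in each actinomycin D library labelled NC. CDKN2A and KRT19 thus go against the PANC-1 label of these 10 libraries labelled NC, and the identity of the 10 is in doubt. In the actinomycin D set, the difference in KHSRP and the other differences between the labels cannot be told apart, and "libraries labelled KO" and "libraries labelled NC" are used for it below.

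Of the 10 fibroblast and stellate cell markers, FBLN1, THY1 and PDGFRB had a median of at least 1 CPM in steady-state KO, and FBLN1 and THY1 in steady-state NC. The summed level of the list was 64.8 to 74.5 CPM in KO and 50.1 to 54.0 in NC, with FAP at 0 counts in all KO libraries and DCN and PDPN at 0 in all NC libraries. Over the 20 timed libraries the sum was 82.6 to 172 CPM in libraries labelled KO, and for NC it was 259 to 483 CPM, and in the latter ACTA2, FBLN1 and PDGFRB passed 1 CPM. FBLN1 alone was 76.9 to 162 CPM of it in KO and 237 to 456 in NC, and THY1 was lower in NC, at 0.708 to 1.36 CPM against 4.82 to 9.34. The part of these markers in the collagen levels was not tested. In bulk RNA, fewer cells of a type and less RNA per cell cannot be told apart.

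The 6 collagen IV genes lie as head-to-head pairs, each pair starting in opposite directions from 1 short stretch of DNA. By the hg19 coordinates of the deposited tables, COL4A1 (chromosome 13, 110801310 to 110959504, minus strand) and COL4A2 (110959631 to 111165556, plus strand) are 127 bases apart. COL4A4 and COL4A3 on chromosome 2 are 419 bases apart, and COL4A6 and COL4A5 on chromosome X are 380 bases apart. RefSeq windows of 300 bases (250 before to 50 after the start, GRCh38.p14) were at hand for 32 of the 44 collagens. The windows of COL4A1 and COL4A2 share 226 bases, those of COL4A3 and COL4A4 share 82, and that of COL4A5 shares 121 with 1 of the 2 windows of COL4A6 and 0 with the other. For each pair 1 window is printed, because the partners' levels are compared below: COL4A2 (chr13:110307034-110307333, plus strand), COL4A4 (chr2:227164156-227164455, minus strand) and COL4A5 (chrX:108439588-108439887, plus strand). Capitals mark the GC box GGGCGG, the CCAAT box CCAAT and the TATA box TATAAA on either strand; the motifs do not overlap one another in the printed windows, and the COL4A4 window holds none of them.
COL4A2: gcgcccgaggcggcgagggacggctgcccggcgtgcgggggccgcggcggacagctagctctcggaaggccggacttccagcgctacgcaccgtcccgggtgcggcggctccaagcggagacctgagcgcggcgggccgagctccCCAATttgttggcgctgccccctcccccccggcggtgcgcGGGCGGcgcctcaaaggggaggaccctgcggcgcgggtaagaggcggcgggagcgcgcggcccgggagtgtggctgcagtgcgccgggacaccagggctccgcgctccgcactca
COL4A4: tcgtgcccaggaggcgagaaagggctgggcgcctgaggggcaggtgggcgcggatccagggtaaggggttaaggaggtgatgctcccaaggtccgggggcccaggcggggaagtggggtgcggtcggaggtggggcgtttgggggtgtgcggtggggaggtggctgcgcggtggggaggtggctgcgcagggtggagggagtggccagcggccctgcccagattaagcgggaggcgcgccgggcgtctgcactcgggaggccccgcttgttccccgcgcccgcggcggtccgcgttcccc
COL4A5: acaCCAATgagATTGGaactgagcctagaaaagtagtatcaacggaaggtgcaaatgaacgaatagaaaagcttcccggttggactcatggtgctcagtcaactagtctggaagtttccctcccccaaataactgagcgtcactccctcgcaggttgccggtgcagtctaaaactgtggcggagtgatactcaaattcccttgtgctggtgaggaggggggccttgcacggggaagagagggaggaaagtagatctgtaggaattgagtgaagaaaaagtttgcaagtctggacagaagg

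COL4A4 was also among 5 of the 44 collagens at 5 CPM or more in every actinomycin D library of 1 label and under 0.6 CPM in every library of the other. The share of all genes that meet these cut-offs was not computed. All 10 libraries of 1 label lay apart from all 10 of the other for 38.2% of all genes. COL4A3, the partner of COL4A4, was also among the 5, and the windows of the other 3 are COL11A1 (chr1:103108473-103108772, minus strand), COL13A1 (chr10:69801656-69801955, plus strand) and COL15A1 (chr9:98943657-98943956, plus strand).
COL11A1: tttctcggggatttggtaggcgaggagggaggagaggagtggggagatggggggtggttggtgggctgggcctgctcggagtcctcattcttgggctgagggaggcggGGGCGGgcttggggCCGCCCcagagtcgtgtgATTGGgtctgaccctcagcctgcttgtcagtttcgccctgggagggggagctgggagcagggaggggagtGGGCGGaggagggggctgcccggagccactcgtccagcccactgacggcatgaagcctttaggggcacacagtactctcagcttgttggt
COL13A1: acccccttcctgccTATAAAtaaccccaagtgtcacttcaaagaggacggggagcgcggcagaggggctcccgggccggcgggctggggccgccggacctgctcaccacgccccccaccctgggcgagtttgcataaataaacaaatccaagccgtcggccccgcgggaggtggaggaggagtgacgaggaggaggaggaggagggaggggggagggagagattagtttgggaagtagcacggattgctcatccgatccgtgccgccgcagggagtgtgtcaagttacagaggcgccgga
COL15A1: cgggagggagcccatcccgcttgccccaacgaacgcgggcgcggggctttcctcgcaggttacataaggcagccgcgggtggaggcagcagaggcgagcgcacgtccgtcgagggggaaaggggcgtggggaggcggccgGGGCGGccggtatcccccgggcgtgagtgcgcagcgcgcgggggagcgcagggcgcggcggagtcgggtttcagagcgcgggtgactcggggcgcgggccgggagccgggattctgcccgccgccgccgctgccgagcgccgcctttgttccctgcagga
The GC box was in 54.5% of the 44 collagen windows (some genes have several) and in 56.3% of 22199 windows of protein-coding genes. The CCAAT box was in 31.8% against 34.7%, and the TATA box in 18.2% against 9.47%. The COL4A2, COL4A4 and COL15A1 windows have 45, 29 and 45 CpG dinucleotides. Those of COL13A1, COL11A1 and COL4A5 have 22, 12 and 8. The median was 17 over the collagen windows and 21 over all windows. A match is a description of the letters only.

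In the steady state, collagens took 0.145% ± 0.00309 of all counts in KO and 0.130% ± 0.00820 in NC (SD, n = 3 each). All 3 KO libraries, at 0.142 to 0.148%, were above all 3 NC libraries, at 0.124 to 0.139%; the exact two-sided permutation test gave p = 0.1, the smallest that 3 against 3 allows. COL18A1, which encodes the heparan sulfate collagen XVIII of basement membranes, alone held 46.3 to 47.7% of the collagen counts in KO and 39.0 to 40.4% in NC. COL5A2, the alpha 2 chain of collagen V, held 28.0 to 30.4% in KO and 38.3 to 39.1% in NC. Per transcript length these were also the most abundant, at 49.8 to 59.4 TPM in KO and 34.2 to 42.1 in NC for COL18A1, and at 21.5 to 28.0 and 25.4 to 28.9 TPM for COL5A2. The next were COL16A1, at 3.50 to 6.76 TPM over the 6 libraries, COL4A2, at 2.16 to 4.67, and COL4A1, at 2.37 to 4.74.

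Of the 44 collagens, 28 had enough counts for the steady-state test (edgeR's quasi-likelihood test with Benjamini-Hochberg adjustment over 17240 genes, threshold 0.05). There were 14 that passed, 7 higher and 7 lower in KO; 14 did not. Over all genes 50.6% passed, 24.4% higher and 26.3% lower, so the share of collagens that passed was near the background. The median log2 change of the tested collagens was 0.25, against 0.02 over all genes. Libraries of the 2 groups did not overlap for 21 of the 28, against 60% of all genes. The 7 higher were COL1A1, COL4A2, COL4A6, COL5A1, COL6A1, COL16A1 and COL18A1, and the 7 lower were COL3A1, COL4A5, COL5A2, COL6A6, COL10A1, COL12A1 and COL26A1.

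**Figure D1:**
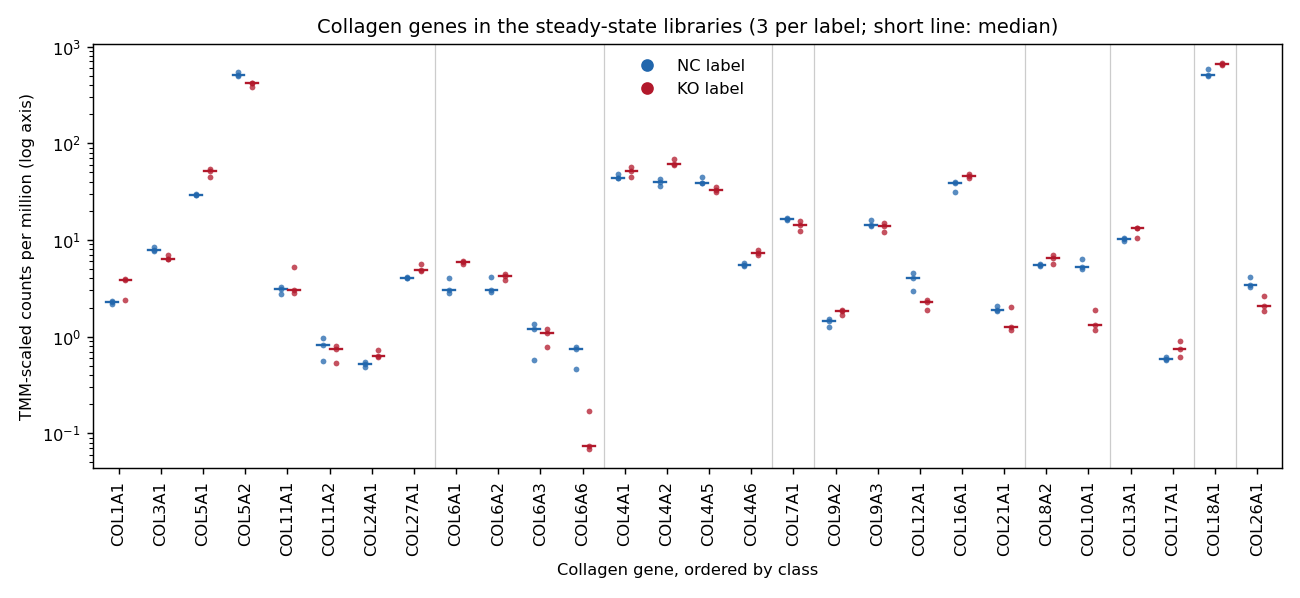
TMM-scaled CPM (log axis) of the 28 collagens tested in the steady state, ordered by class; points are libraries (3 per label, NC blue and KO red) and short lines medians. COL18A1 and COL5A2 stand above all others, and the libraries of the 2 labels do not overlap for 21 genes.

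The split depended on transcript length. Among the 4310 genes of the longest transcripts (from 3312 bases) 17.4% were higher and 46.8% lower in KO, and 15 of the 28 tested collagens were in it, 4 higher and 5 lower. With offsets that remove each library's trend over transcript length, 14 collagens again passed, but 11 were higher and 3 lower. The shares of all genes higher and lower with these offsets were not computed. Neither this split nor that of the pathway list below therefore has a background beside it. The 3 that were then lower were COL6A6, COL10A1 and COL26A1. COL4A1, COL8A2, COL24A1 and COL27A1 then passed as higher, COL12A1 and COL4A5 no longer passed, and COL3A1 and COL5A2 had values on the other side of 0. Directions below are therefore given with the length-adjusted value wherever it changed the call.

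**Figure D2:**
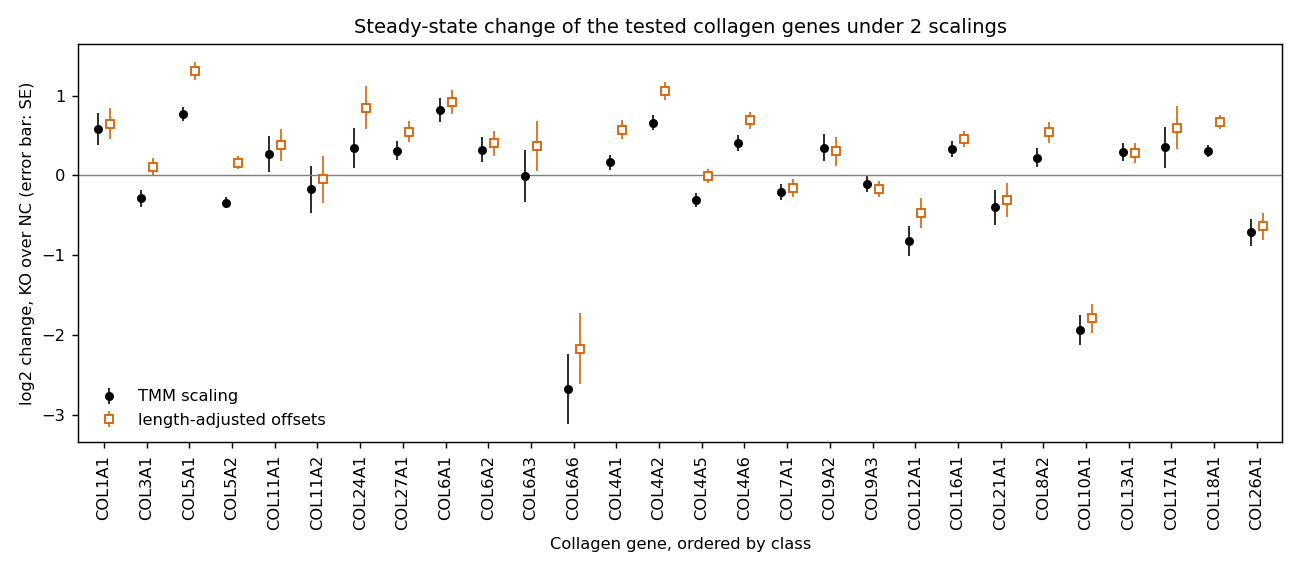
log2 change (KO over NC, error bars SE) of the 28 tested collagens with TMM scaling (black) and with length-adjusted offsets (orange squares). COL5A2 moves from -0.34 to 0.16 and COL4A1 from 0.16 to 0.57, while COL10A1 (-1.93 and -1.79) and COL6A6 (-2.67 and -2.17) stay low.

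Of 8 tested fibrillar collagens 2 were higher and 2 lower, near the 24.4% and 26.3% of all genes. COL5A1, the chain that pairs with COL5A2 in collagen V fibrils and is known to limit fibril diameter, stood at 45.1, 51.3 and 53.8 CPM in the KO libraries and at 29.0, 29.4 and 29.8 in NC. Every KO library was above every NC library, and the log2 change was 0.77 (SE 0.09, edgeR adjusted p = 0.000119). COL5A2 stood at 423, 384 and 422 CPM in KO and at 512, 551 and 495 in NC, a change of -0.34 (SE 0.07, adjusted p = 0.00344). It was lower in every KO library, but its length-adjusted change was 0.16 (SE 0.08, adjusted p = 0.124). The ratio of COL5A1 to COL5A2 per transcript length was at most 0.126 and at least 0.1002 in KO, and 0.0547 to 0.0616 in NC, so the partner chains of collagen V were closer in level in every KO library than in any NC library; no test was made of this ratio.

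COL1A1, a chain of the main fibril collagen of connective tissue, was low in these cells, with 138, 158 and 104 counts in KO (3.96, 3.86 and 2.40 CPM) and 79, 91 and 91 in NC (2.31, 2.17 and 2.34 CPM). Its change of 0.58 (SE 0.20, adjusted p = 0.0356) rested mainly on KO replicates 1 and 2: it no longer passed without either of them (0.48, adjusted p = 0.0691, and 0.46, adjusted p = 0.0996), nor without any of the NC replicates (adjusted p 0.0817 to 0.114). COL1A2, its partner chain in collagen I, had 0 counts in all 6 libraries. COL3A1, which forms fibrils with collagen I, was at 6.31, 6.27 and 7.05 CPM in KO and 7.65, 7.95 and 8.43 in NC. Its change of -0.29 (SE 0.10, adjusted p = 0.0405) was lost without KO replicate 1 or 2 or any NC replicate (adjusted p 0.0626 to 0.138), and its length-adjusted value was 0.11 (adjusted p = 0.445). COL11A1, a minor fibrillar chain known as a marker of tumour stroma, was at 5.19, 2.86 and 3.06 CPM in KO and 3.30, 2.74 and 3.12 in NC. The groups overlapped and it did not pass (0.27, SE 0.22, adjusted p = 0.337).

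The basement membrane genes of collagen IV gave different pictures for the 2 pairs that were expressed. COL4A2 stood at 59.6, 60.8 and 67.9 CPM in KO and at 40.1, 43.1 and 36.0 in NC (0.66, SE 0.09, adjusted p = 0.00039). COL4A1, which shares its start region (printed above) and joins it in the same protomer, stood at 44.7, 51.1 and 56.7 CPM in KO and at 44.1, 48.1 and 44.1 in NC (0.16, SE 0.10, adjusted p = 0.19). COL4A1 overlapped between the groups with KO replicate 1 and did not pass; without that library it did (0.26, adjusted p = 0.00741), as it did with length-adjusted offsets (0.57, adjusted p = 0.00242). Per length the ratio of COL4A2 to COL4A1 was 0.985 to 1.15 in KO and 0.911 to 1.25 in NC, which overlap.

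In the pair on chromosome X the chains differed in direction under the first scaling. COL4A5, whose loss causes Alport syndrome of the kidney, stood at 35.2, 31.4 and 32.8 CPM in KO and 39.0, 44.9 and 38.7 in NC (-0.30, SE 0.09, adjusted p = 0.0174), but at -0.01 (adjusted p = 0.954) with length-adjusted offsets. It also missed the threshold without KO replicate 3 (-0.29, adjusted p = 0.0636). COL4A6 stood at 7.78, 6.98 and 7.35 CPM in KO and at 5.49, 5.75 and 5.41 in NC (0.41, SE 0.10, adjusted p = 0.00873; by limma on log2(TPM + 0.1) 0.44, adjusted p = 0.0703). The ratio of COL4A5 to COL4A6 per length was 3.75 to 4.82 in KO and 6.55 to 8.10 in NC, without overlap and without a test. COL4A3 and COL4A4, the remaining pair, had at most 6 and 17 counts in a steady-state library and were not tested.

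Among beaded filament chains, COL6A1 stood at 5.60, 6.08 and 5.97 CPM in KO and at 2.83, 4.03 and 3.07 in NC (0.82, SE 0.15, adjusted p = 0.00145; by limma on log2(TPM + 0.1) 0.61, adjusted p = 0.0693). Its partners in collagen VI did not pass: COL6A2 was at 3.85 to 4.49 CPM in KO and 2.91 to 4.10 in NC (0.32, adjusted p = 0.118), where NC replicate 2 was the library that overlapped KO, and without it COL6A2 passed (0.49, adjusted p = 0.0246). COL6A3 was at 0.783 to 1.21 CPM in KO and 0.573 to 1.34 in NC. COL6A6, an alternative to COL6A3 in the protomer, had 6, 3 and 3 counts in KO and 16, 31 and 30 in NC; its change of -2.67 (SE 0.44, adjusted p = 0.000902) thus rests on few reads.

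COL10A1, the short-chain collagen X known from growth plate cartilage, was the collagen with at least 1 CPM that fell furthest. It stood at 1.89, 1.32 and 1.18 CPM in KO and at 5.28, 5.06 and 6.29 in NC (-1.93, SE 0.19, adjusted p = 6.41e-05), with every KO library below every NC library. COL10A1 lies within the span of NT5DC1 on the opposite strand, which had 8862 counts over the 3 KO libraries and 11688 over the 3 NC libraries. No source used here says whether counting used strand, so reads of the 2 genes may not be separable. COL8A2, another short-chain collagen, was at 5.62 to 7.05 CPM in KO and 5.39 to 5.61 in NC, short of the threshold (0.22, adjusted p = 0.146); it passed without KO replicate 1 (0.32, adjusted p = 0.0363) and with length-adjusted offsets (0.54, adjusted p = 0.0067).

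Of the FACIT collagens 5 were tested, 1 higher and 1 lower, against 24.4% and 26.3% of all genes. COL16A1, a fibril-associated collagen, stood at 45.9, 43.7 and 48.3 CPM in KO and at 38.8, 39.7 and 31.2 in NC (0.33, SE 0.10, adjusted p = 0.0227). It no longer passed without NC replicate 3 (0.23, adjusted p = 0.0907) or KO replicate 3 (0.30, adjusted p = 0.0832). COL12A1, which bridges fibrils, had 84, 94 and 82 counts in KO and 140, 191 and 115 in NC (2.41, 2.30 and 1.89 against 4.09, 4.56 and 2.96 CPM). Its change was -0.82 (SE 0.19, adjusted p = 0.00517), and -0.47 (adjusted p = 0.0617) with length-adjusted offsets. COL9A3 (12.2 to 15.1 CPM in KO, 13.9 to 16.1 in NC), COL9A2 and COL21A1 did not pass, although COL21A1 did without KO replicate 1 (-0.65, adjusted p = 0.0179).

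COL18A1 stood at 645, 656 and 671 CPM in KO and at 510.4, 581 and 501 in NC (0.31, SE 0.07, adjusted p = 0.00638), and at 0.67 (SE 0.09, adjusted p = 0.00014) with length-adjusted offsets. All KO libraries were above all NC libraries under the first scaling. Its exons overlap those of SLC19A1 on the opposite strand, which had 4603 counts over the 3 KO and 3106 over the 3 NC libraries, small beside the 17489 to 29122 counts of COL18A1 in each library. COL7A1, the anchoring fibril of skin and other epithelia, was at 12.3, 15.8 and 14.4 CPM in KO and 15.9, 16.8 and 16.4 in NC, short of the threshold (-0.21, adjusted p = 0.122; -0.30, adjusted p = 0.0419 without KO replicate 2). COL13A1, a transmembrane collagen of cell adhesion sites, was at 10.5, 13.2 and 13.4 CPM in KO and 9.69 to 10.4 in NC. It just missed the threshold (0.29, adjusted p = 0.0538) and passed without KO replicate 1 (0.41, adjusted p = 0.00205). COL26A1, a little studied collagen, had 73 to 114 counts in KO and 116 to 173 in NC (-0.72, SE 0.17, adjusted p = 0.00671; by limma on log2(TPM + 0.1) -0.49, adjusted p = 0.119). COL27A1, a fibrillar collagen of cartilage, missed the threshold (0.31, adjusted p = 0.054) and passed without KO replicate 1 (0.35, adjusted p = 0.0418) and with length-adjusted offsets (0.55, adjusted p = 0.00443).

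At 0 h of the actinomycin D set the libraries of the 2 labels differed in most collagens, in part by detection: COL5A2, COL11A1 and COL13A1 were abundant in those labelled KO and at most at 1.39 CPM in those labelled NC, and COL4A3, COL4A4 and COL15A1 the other way round. Of the 44 collagens 33 were tested, and 29 passed (edgeR's quasi-likelihood test over 17715 genes), 17 higher and 12 lower in the libraries labelled KO, or 87.9%. Over all genes 67.1% passed, 35.5% higher and 31.6% lower. The median log2 change was 1.27 for the tested collagens, against 0.06 over all genes. Setting the 4 genes at 0 counts at their bound left each on its side of this median, so the median could not move. The 2 libraries per label did not overlap for 29 of the 33, against 82% of all genes. All 10 libraries labelled KO lay apart from all 10 labelled NC for 24 collagens, 15 of them higher in KO and 9 higher in NC, against 38.2% of all genes. COL4A6, COL10A1, COL11A2 and COL26A1 did not pass.

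The split moved little with the scaling. Scaling by the ribosomal protein genes put the median gene at 0.50 (log2, KO over NC) and gave 17 collagens higher and 10 lower. The deposited molecule values put it at 0.90 and gave 18 higher and 9 lower. COL5A1 and COL6A1 are the called members whose value changed sign.

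**Figure D3:**
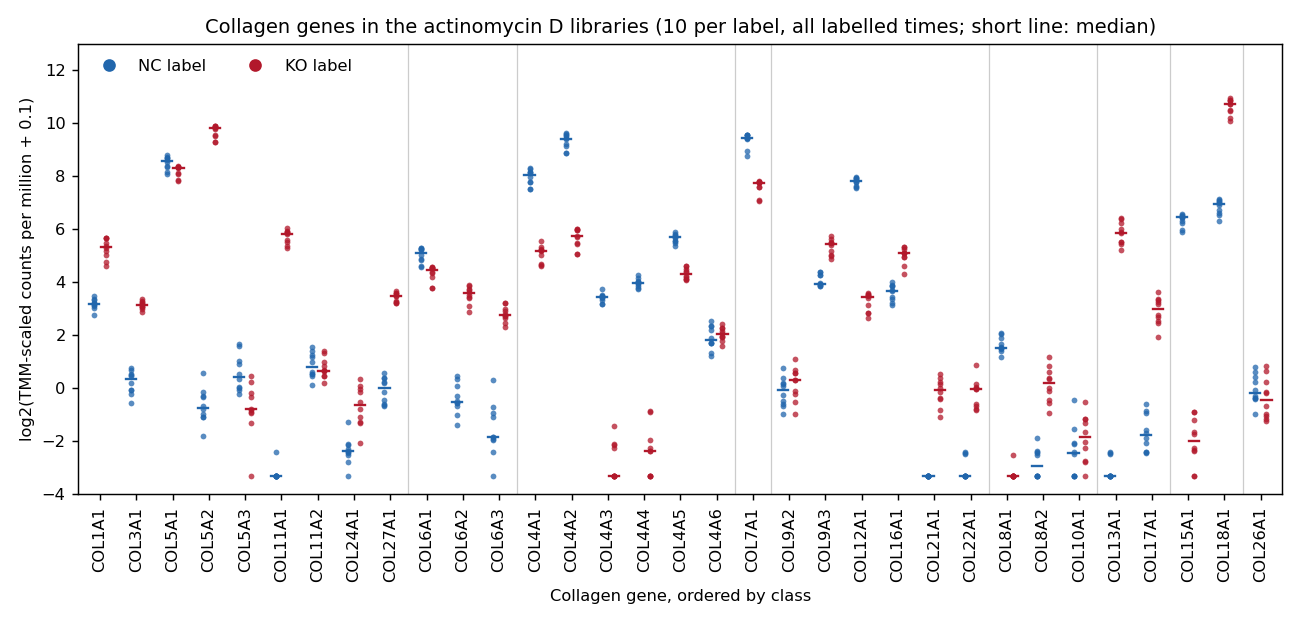
log2(TMM-scaled CPM + 0.1) of the 33 collagens tested in the actinomycin D set; points are libraries (10 per label over all labelled times, NC blue and KO red) and short lines medians. In every library labelled NC COL11A1 and COL13A1 are at or near the floor and COL5A2 at most at 1.39 CPM; COL4A3, COL4A4 and COL15A1 are at most at 0.444 CPM in every library labelled KO.

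Collagen V was split between the labels. COL5A2 (hg19 chromosome 2, 189896624 to 190044487) stood at 888 and 909.9 CPM in the 0 h libraries labelled KO and at 0.807 and 0.376 in those labelled NC, 35565 against 26 counts. It was 1507 times as high (95% counting interval 1028 to 2307), and over all labelled times its lowest, median and highest values were 632, 899 and 956 CPM against 0.188, 0.503 and 1.39. COL5A1 was high under both labels, at 327 and 315 CPM in KO and 411 and 411 in NC. Its change of -0.36 (SE 0.04, adjusted p = 4.14e-10) became 0.09 with ribosomal protein scaling (adjusted p = 0.073) and 0.53 on the molecule scale (adjusted p = 8.89e-06), so no direction can be given for it. The libraries labelled NC thus held the alpha 1 chain of collagen V with hardly any alpha 2 chain, the ratio per length being 217 to 1223 there and 0.278 to 0.299 in KO. COL5A3, the remaining chain of collagen V, was at 0.429 and 1.07 CPM in KO and 1.79 and 2.91 in NC, and its call (-1.65) was lost without KO replicate 1 or NC replicate 2 at 0 h and under both other scalings (adjusted p 0.139 and 0.412).

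The other fibrillar chains that passed were higher in the libraries labelled KO. COL11A1 (hg19 chromosome 1, 103342029 to 103574078) had 2444 counts at 0 h in KO, at 65.4 and 57.7 CPM, and 0 in NC, which is at least 898-fold higher against a floor of 3 counts over the group. No library labelled NC had more than 2 counts of it at any time. COL1A1 stood at 38.9 and 44.5 CPM in KO and at 9.28 and 8.92 in NC (2.19, SE 0.14, adjusted p = 1.2e-17). COL3A1 was at 10.3 and 9.18 CPM against 0.852 and 0.751, COL27A1 at 9.40 and 12.5 against 0.807 and 1.22, and COL24A1 at 39 against 2 counts, a ratio of 21.5 with a 95% counting interval of 5.56 to 184 that was no longer called without NC replicate 2 at 0 h (adjusted p = 0.054). COL1A2 and COL2A1 stayed under the count filter in both labels.

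Collagen IV was the class higher in the libraries labelled NC: all 6 of its genes were tested and 5 were lower in KO, against 31.6% of all genes. COL4A2 stood at 52.1 and 54.4 CPM in KO and at 729 and 762 in NC (-3.81, SE 0.05, adjusted p = 1.6e-42), a 14.01-fold difference. COL4A1 stood at 35.9 and 37.2 CPM against 288 and 284 (-2.97, SE 0.08, adjusted p = 1.01e-28), a 7.84-fold difference. Per length COL4A2 exceeded COL4A1 1.52 to 2.02 times in KO and 2.76 to 3.19 times in NC over all labelled times, so the partners of 1 start region differed by label in their ratio as well as in their level. COL4A2-AS1 and COL4A2-AS2, which overlap COL4A2 exons on the opposite strand, had 5987 and 2923 counts over the 10 libraries labelled NC and 381 and 238 over those labelled KO; without strand their reads and those of COL4A2 cannot be told apart.

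COL4A3 and COL4A4, the chains of the kidney and lung basement membrane, were detected as a pair. COL4A3 stood at 10.8 and 10.8 CPM in NC and at 0 and 0.269 in KO, 470 against 5 counts. COL4A4 stood at 13.3 and 16.3 CPM in NC and at 0.0954 and 0.107 in KO, 645 against 4 counts. In the 10 libraries labelled NC, COL4A4 was 0.929 to 1.44 times COL4A3 per length. The pair on chromosome X did not follow as a unit: COL4A5 was at 18.2 and 22.3 CPM in KO against 52.8 and 55.2 in NC (-1.42, SE 0.11, adjusted p = 5.97e-15), while COL4A6 was at 5.30 and 2.90 against 2.24 and 4.51 and did not pass (0.29, SE 0.34, adjusted p = 0.467).

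The multiplexins, collagens XV and XVIII of basement membrane zones, differed in opposite directions. COL18A1 (hg19 chromosome 21, 46825080 to 46933634) stood at 1685 and 1714 CPM in the 0 h libraries labelled KO and at 136 and 142 in those labelled NC (3.62, SE 0.06, adjusted p = 1.59e-26). COL15A1 (hg19 chromosome 9, 101706189 to 101833069) stood at 0.0954 and 0.215 CPM in KO and at 92.9 and 86.3 in NC, 6 against 3909 counts, a 591-fold difference (95% counting interval 271 to 1612). Exons of SLC19A1, on the opposite strand, overlap COL18A1 here too, with 46490 counts over the 10 libraries labelled KO and 13075 over those labelled NC. Over all labelled times COL15A1 did not exceed 0.437 CPM in KO and did not fall below 59.8 in NC. Per length, COL18A1 was the most abundant collagen in KO at 81.6 to 125 RPKM, and COL4A2 in NC at 34.1 to 52.8 RPKM.

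Both tested transmembrane collagens were far higher in the libraries labelled KO, where 35.5% of all genes were higher. COL13A1 (hg19 chromosome 10, 71561662 to 71718900) stood at 59.2 and 58.3 CPM in KO and had 2 counts in NC, a ratio of 1281 with a 95% counting interval of 354 to 10590. COL17A1, the hemidesmosome collagen of epithelia, was at 6.77 and 9.08 CPM in KO and 0.0897 and 0.141 in NC, 311 against 5 counts. COL23A1 and COL25A1, the other 2 of the class, were under the filter.

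COL7A1 and COL12A1 were the large collagens higher in NC. COL7A1 stood at 223 and 221 CPM in KO and 757 and 757 in NC (-1.77, SE 0.05, adjusted p = 1.02e-29). COL12A1 stood at 10.5 and 11.7 CPM in KO and 248 and 240.4 in NC (-4.47, SE 0.09, adjusted p = 2.34e-35), a 22.1-fold difference. The other FACIT collagens that passed were higher in KO: COL9A3 at 45.0 and 42.4 CPM against 15.5 and 20.7, COL16A1 at 34.8 and 38.4 against 14.9 and 12.5, COL9A2, COL21A1 and COL22A1. COL21A1 had 39 counts against 0 (at least 14.3-fold) and COL22A1 20 against 0 (at least 7.35-fold). The call of COL9A2 (1.45, adjusted p = 0.0478) was lost with RLE size factors (adjusted p = 0.0524) and without any 1 of the 4 libraries at 0 h (adjusted p 0.0574 to 0.193).

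Collagen VI was also uneven. COL6A2 stood at 12.3 and 10.6 CPM in KO and 0.717 and 1.27 in NC, and COL6A3 at 6.54 and 7.36 against 0.179 and 0.516. COL6A1 stood at 24.0 and 23.3 CPM in KO and 39.2 and 38.4 in NC (-0.71, SE 0.11, adjusted p = 5.28e-07), with 0.08 on the molecule scale (adjusted p = 0.656). Per length COL6A1 was 1.46 to 2.27 times COL6A2 in KO and 31.3 to 89.6 times in NC. COL8A1, a short-chain collagen of vessel walls, had 0 counts at 0 h in KO and 120 in NC, at least 36.3-fold higher in NC. COL8A2 was at 34 counts in KO and 4 in NC, and its call was lost without KO replicate 2 at 0 h (adjusted p = 0.0671).

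Levels of the 2 sets are not on 1 scale, because their tables were made apart. Which genes were detected can still be set side by side. COL11A1 and COL13A1 were present in all 6 steady-state libraries, at 2.74 to 5.19 and 9.69 to 13.4 CPM, as in the actinomycin D libraries labelled KO. COL15A1 had 1 to 10 counts in the steady-state libraries of either genotype and COL8A1 at most 1. COL5A2 had at least 14748 counts in each steady-state library. For these genes the steady-state NC libraries resembled the actinomycin D libraries labelled KO in detection, not those labelled NC. Other collagens did not follow this. COL10A1 had 181 to 244 counts in the steady-state NC libraries, 0 to 15 in the actinomycin D libraries labelled KO and 0 to 12 in those labelled NC. In the same order COL26A1 had 116 to 173, 6 to 37 and 11 to 38 counts, and COL22A1 had 3 to 5, 9 to 32 and 0 to 2. The resemblance was not tested.

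Over the labelled times the share of counts on collagens was lowest at 1 inner time in each label and near its 0 h value at 8 h. In the libraries labelled NC they took 0.272 to 0.274% of counts at 0 h, 0.245 to 0.249% at 2 h, 0.199 to 0.210% at 4 h, 0.257 to 0.268% at 6 h and 0.266 to 0.273% at 8 h. In the libraries labelled KO the shares were 0.344 to 0.351%, 0.352 to 0.361%, 0.322 to 0.325%, 0.279 to 0.288% and 0.355 to 0.362% in the same order. The lowest share was at the 4 h label in NC and at the 6 h label in KO.

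**Figure D4:**
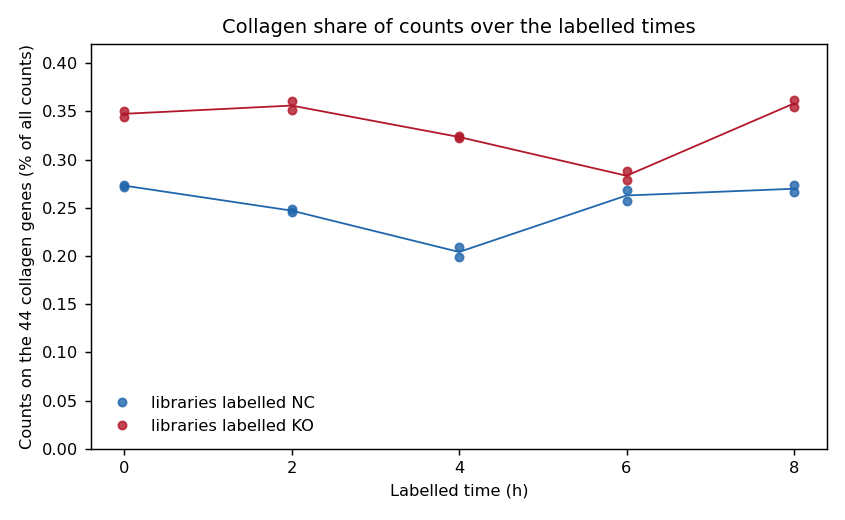
Counts on the 44 collagens as a percent of all counts against labelled time; points are libraries (2 per label and time), lines join means. The libraries labelled NC are lowest at 4 h and those labelled KO at 6 h, and both stand near their 0 h values at 8 h.

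Among the collagens of at least 20 CPM at 0 h, all 9 in NC had their lowest mean at 4 h, and 12 of 13 in KO had it at 6 h. At NC 4 h, 11 of the 33 tested collagens were lower than at 0 h and 0 higher by edgeR's test (24.4% of all genes lower, 27.1% higher). At KO 6 h, 12 were lower and 0 higher (28% and 19.7% of all genes). Of the 33 tested collagens 8 were lower in both: COL4A1, COL4A2, COL5A1, COL6A1, COL7A1, COL9A3, COL12A1 and COL18A1. Of all 17715 genes tested, 3511 (19.8%) were lower in both, 4318 at NC 4 h and 4958 at KO 6 h. At KO 4 h 11 collagens were lower (15.7% of all genes) and at NC 2 h 7 were (14.9%). At 2 h in KO COL4A2 alone passed, as higher (4.87% of all genes higher, 4.29% lower), and at KO 4 h no collagen was higher (12% of all genes). At NC 2 h none was higher either (16.9%). At NC 6 h and 8 h no collagen passed in either direction by edgeR's test, against 3.12% higher and 1.3% lower of all genes at 6 h, and 1.61% and 1.59% at 8 h.

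COL18A1 in the libraries labelled KO stood at 1685 and 1714 CPM at 0 h, 1842 and 1899 at 2 h, 1459 and 1424 at 4 h, 1085 and 1165 at 6 h and 1882 and 2011 at 8 h. The 6 h libraries were the lowest (-0.60, SE 0.05, adjusted p = 2.3e-10), and those of 8 h were above 0 h (0.20, SE 0.05, adjusted p = 0.0058). COL4A2 in the libraries labelled NC stood at 729 and 762 CPM at 0 h, 570.3 and 593 at 2 h, 468 and 473 at 4 h, 674 and 694 at 6 h and 779 and 793 at 8 h. Its 4 h libraries were the lowest (-0.66, SE 0.04, adjusted p = 8.12e-18), and those of 8 h did not differ from 0 h beyond the threshold (0.08, adjusted p = 0.358). COL7A1 fell by 0.69 on the log2 scale at NC 4 h (SE 0.05, adjusted p = 6.25e-16) and by 0.71 at KO 6 h (SE 0.05, adjusted p = 1.77e-15).

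COL1A1 in the libraries labelled KO took another course. It stood at 38.9 and 44.5 CPM at 0 h, 33.0 and 36.2 at 2 h, 50.5 and 51.5 at 4 h, 41.8 and 50.5 at 6 h and 24.6 and 27.1 at 8 h. It was highest at 4 h, where it did not pass against 0 h (0.29, adjusted p = 0.0754), and lowest at 8 h (-0.69, SE 0.13, adjusted p = 6.04e-05), when the median gene stood at 0. At 8 h COL18A1, COL4A1, COL4A2 and COL13A1 were higher than at 0 h in KO (11.3% of all genes), and COL1A1 was the 1 collagen that was lower (10.7%). COL13A1 rose from 59.2 and 58.3 CPM to 84.8 and 86.1 (0.54, SE 0.12, adjusted p = 0.000419).

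**Figure D5:**
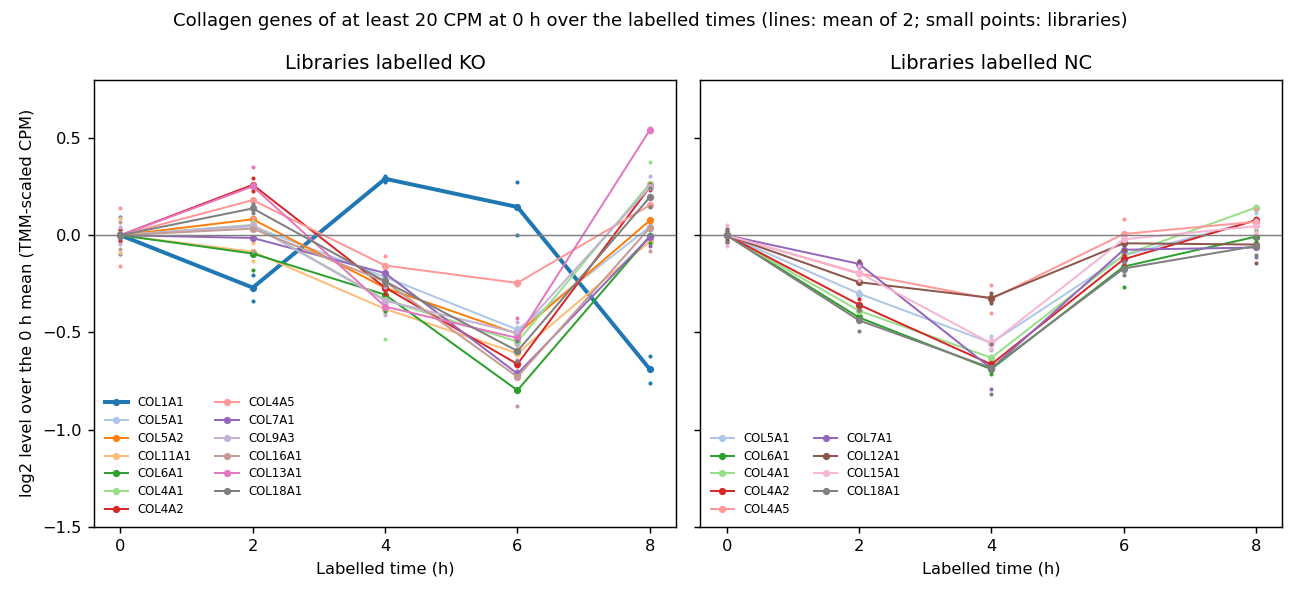
log2 level over the 0 h mean (TMM-scaled CPM) against labelled time for the collagens of at least 20 CPM at 0 h (13 in KO, 9 in NC); lines are means of 2 libraries, small points the libraries. In KO 12 genes are lowest at 6 h while COL1A1 (thick line) is lowest at 8 h, and in NC all 9 are lowest at 4 h.

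These courses are relative to the other transcripts in the same library. Scaling by the ribosomal protein genes put the median gene at 0.62 for NC 4 h and 0.53 for KO 6 h, and 8 and 6 collagens were then higher and 0 lower. Of all genes 55.6% and 52.2% were then higher, and 1.15% and 0.564% lower. Relative to that median the collagens were still low: their median change was 0.30 at NC 4 h and 0.14 at KO 6 h. By the deposited molecule values 6 collagens were lower at NC 4 h and 10 at KO 6 h, 0 higher (6.77% and 39.4% of all genes lower, 32.2% and 9.78% higher). On that scale 13 of the 33 collagens were lower at NC 8 h and 20 at KO 8 h, as were 66.4% and 75.7% of all genes. The median gene stood there at -1.17 and -1.77 and the median collagen at -1.09 and -1.72. At 8 h with ribosomal protein scaling 2 collagens were lower and 0 higher in NC (9.11% and 0.26% of all genes), and 5 lower and 1 higher in KO (25.8% and 1.61%). The return to the 0 h level at 8 h therefore holds relative to the library, not on the molecule scale, and for fewer collagens with ribosomal protein scaling.

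Over all labelled times (F test of 2, 4, 6 and 8 h against 0 h), 17 of 33 collagens changed in KO, or 51.5%, against 55.9% of all genes, and 12 in NC, or 36.4%, against 54.7%. The change differed between the labels for 13, or 39.4%, against 55.3% of all genes. Without the NC 4 h and KO 6 h libraries these counts were 11, 11 and 7, and the shares of all genes were 41.8%, 39.3% and 33.8%. The times tested against 0 h were then 2, 4 and 8 h in KO and 2, 6 and 8 h in NC. The difference was then tested at 2 and 8 h only, the times that both labels held. A straight line over labelled time did not describe these courses. The difference in slope between labels passed for 0 collagens and for 0% of all 17715 genes (lowest adjusted p over all genes 0.424); 529 genes and 1 collagen had an unadjusted p under 0.05, and DESeq2 called 6 genes and 0 collagens. For the 7 collagens of at least 20 CPM at 0 h under both labels, the slope differences (KO minus NC) were -0.039 to -0.016 log2 units per hour, with SE of 0.031 to 0.048.

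A list of 61 genes of the collagen pathway, chosen with earlier results of these data known, was described beside the members. In the steady state 56 were tested and 29 passed, 13 higher and 16 lower in KO (51.8%, against 50.6% of all genes), with a median of 0.05; with length-adjusted offsets 18 were higher and 12 lower. Of 10 chaperone and export genes 5 were lower and 0 higher (26.3% and 24.4% of all genes): FKBP14, SEC23A, SEC24D, MIA2 and MIA3. With length-adjusted offsets 4 were lower, since SEC23A no longer passed (-0.28, adjusted p = 0.0846), and KLHL12 passed as higher (0.27, adjusted p = 0.0238). FKBP14, a prolyl isomerase of the endoplasmic reticulum, was at 10.8 ± 1.23 CPM in KO and 26.2 ± 1.54 in NC (SD, n = 3; -1.28, SE 0.10, edgeR adjusted p = 2.96e-05). Of 13 hydroxylase genes 5 were higher and 2 lower. The lower ones were P4HA1, a prolyl hydroxylase subunit (-1.10), and PLOD2, a lysyl hydroxylase of cross-link sites (-1.16). P3H1 (0.55), PLOD3 (0.53) and P3H3 (0.44) were among the higher ones. MMP14, a membrane protease that cuts collagen, rose by 0.63 on the log2 scale, and ITGB1, the beta chain of the collagen-binding integrins, fell by 1.56.

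At 0 h of the actinomycin D set 59 of the 61 were tested and 50 passed, 28 higher and 22 lower in the libraries labelled KO (84.7%, against 67.1% of all genes). The split was 33 to 18 with ribosomal protein scaling and 35 to 10 on the molecule scale. Among the 7 receptors 6 were higher and 1 lower, against 35.5% and 31.6% of all genes. The higher ones were led by ITGA2, a collagen-binding integrin chain, and included ITGA10 and ITGA11. ITGA2 was at 966 ± 8.30 CPM against 35.7 ± 2.60 (SD, n = 2), a log2 change of 4.76 (SE 0.06, edgeR adjusted p = 2.3e-39). ITGA1, a further chain of that kind, was lower (-4.12). The gelatinase gene MMP2 was at 132 ± 2.92 CPM against 0.141 ± 0.199, and the collagenase gene MMP1 at 80.1 ± 1.38 against 0.277 ± 0.139. PLOD2 was higher in KO here (3.66). Lower in KO were the inhibitor TIMP3 (-4.28), the cross-linking enzyme LOX (-2.90) and PCOLCE, an enhancer of propeptide cleavage (-2.35).

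In all, 27 collagens were tested in both sets, COL6A6 in the steady state only, and COL4A3, COL4A4, COL5A3, COL8A1, COL15A1 and COL22A1 in the actinomycin D set only. There were 10 tested in neither: COL1A2, COL2A1, COL6A5, COL9A1, COL14A1, COL19A1, COL20A1, COL23A1, COL25A1 and COL28A1. None of these had more than 10 counts in a library, and none of the 44 was at 0 counts in all 26 libraries. COL1A2, COL6A5 and COL9A1 were at 0 in every steady-state library and COL19A1 in every actinomycin D library. COL9A3 shares exon bases with TCFL5 on the opposite strand and COL5A1 with LOC101448202, so their values carry the same limit of strand as above. The deposited length of COL11A2 spans 7 sequences that include alternative haplotypes, and no level per length is given for it.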

How the data were processed

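RNA-seq tables of 26 libraries labelled PANC-1 were used; the identity of the 10 labelled NC in the actinomycin D set is in doubt. Per the file headers the authors deposited RSEM expected counts, TPM and FPKM (not used here) per gene for the 6 steady-state libraries, and whole-number counts, RPM, RPKM, a molecule signal and its log2 value per gene for the 20 actinomycin D libraries; that log2 value is a straight line of log2 RPKM within each library, and its calibration is not stated there. Per the submitters' processing notes STAR, RSEM, Bowtie2 and deepTools were run and hg19 was the build; versions, roles and the use of strand are not stated. Expected counts (10.2% of them not whole) were rounded, and 45 duplicate rows of the pseudoautosomal regions were merged.

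Groups came from the titles. The test was edgeR 4.0.16 (R 4.3.3; filterByExpr, TMM, quasi-likelihood, Benjamini-Hochberg over all genes tested, threshold 0.05), with the 20 actinomycin D libraries in 1 fit of 10 groups; levels are TMM-scaled CPM. Fold intervals are 95% and, like the floor of 3 counts over a group, cover counting error only. limma 3.58.1 was used on log2(TPM + 0.1) and on the molecule values, and DESeq2 1.42.0 as an alternative. The scripts were tested on simulated data. Collagens of at least 1 CPM in a group were described by class, those above 20 CPM or at an extreme by library, and the rest by range or name. The members, classes and lists were chosen with earlier results of these data known. Replicates differed by more than sampling noise (chi-square per degree of freedom 3.81 to 42.8), so none were merged. By this measure steady-state KO replicate 1 stood apart, at 42.8 from replicate 2 and 26.6 from replicate 3. Those replicates were 11.3 from each other. Pairs of steady-state NC libraries gave 3.81 to 12.8, and replicate pairs of the actinomycin D set 3.90 to 5.30. Without KO replicate 1, 17 collagens and 57.2% of all genes passed in the steady state, instead of 14 and 50.6%. Promoter windows come from RefSeq (GRCh38.p14).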

Additional observations from a re-analysis of the deposited data

Results flagged for a closer look

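The change from 0 h over the labelled times differed between the labels for 13 collagens by edgeR's F test of the difference, with all genes adjusted together; 55.3% of all genes passed the same test. The adjusted p was 6.91e-18 for COL4A2, 5.95e-16 for COL7A1, 2.5e-14 for COL5A1, 1.24e-10 for COL18A1 and 6.51e-08 for COL4A1. It was 7e-07 for COL12A1, 4.72e-06 for COL6A1, 0.000542 for COL1A1, 0.000773 for COL5A2, 0.0059 for COL16A1 and 0.00837 for COL4A5. It was 0.0122 for COL4A4 and 0.0194 for COL6A3. In 1 label counts were few for 3 of these: at most 12 in a KO library for COL4A4, and at most 35 and 24 in an NC library for COL5A2 and COL6A3.

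For 5 of the 27 collagens tested in both sets, the log2 difference between KO and NC passed in both with opposite signs, and every library of a group lay on the same side. The share of all genes that do so was not computed, while 50.6% passed in the steady state and 67.1% at 0 h. The 5 are therefore not set apart from other genes. The difference between the sets was not tested, because their tables were made apart. COL4A2 was at 0.66 in the steady state and -3.81 at 0 h, and COL6A1 at 0.82 and -0.71. COL5A1 was at 0.77 and -0.36, COL5A2 at -0.34 and 10.55, and COL3A1 at -0.29 and 3.59. The steady-state values of COL5A2 and COL3A1 and the 0 h values of COL5A1 and COL6A1 changed sign with another scaling.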

How the results depend on the processing

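Of 4758 values of single collagens recomputed under the alternatives, 4584 kept their side of the threshold, 115 lost it, 54 passed it anew and 5 changed sign. Sign was compared only for the steady-state, 0 h and slope differences, and only where a value passed in either fit. For the changes over time the side of the threshold alone was compared. The 4758 include slope differences, where no collagen passed in the main fit, and refits without a library outside the contrast. The 4584 therefore do not measure how stable the called results are. The values that changed sign are not among the 115, though all but COL5A1 on the molecule scale also lost the threshold. The 5 were COL3A1 (0.11) and COL5A2 (0.16) in the steady state with length-adjusted offsets, COL5A1 at 0 h on the molecule scale (0.53) and with ribosomal protein scaling (0.089), and COL6A1 at 0 h on the molecule scale (0.080); for the first 2 the alternative removes the trend over transcript length, and for the others the cause was not tested. The steady-state count of 14 became 9 with limma on log2(TPM + 0.1), 7 higher and 2 lower; COL3A1, COL4A5, COL4A6, COL5A2, COL6A1, COL12A1 and COL26A1 lost their calls there and COL4A1 and COL13A1 gained one. The count of changes over time in KO (17) became 10 with ribosomal protein scaling, 0 of them higher at 8 h, and 11 without the NC 4 h and KO 6 h libraries. Of all genes 55.9% passed this test in the main fit, 60.6% with ribosomal protein scaling and 41.8% without those libraries. The count of differences between labels (13) became 6 on the molecule scale, 8 with ribosomal protein scaling and 7 without those libraries. The last alternative had fewer samples and compared the labels at 2 and 8 h only. Lower collagens at NC 4 h numbered 6 on the molecule scale instead of 11 (6.77% of all genes lower instead of 24.4%). At KO 6 h 6 passed with ribosomal protein scaling, as higher (52.2% of all genes), instead of 12, as lower (28%). Leaving out 1 library at a time gave 11 to 17 calls in the steady state (17 without KO replicate 1), 26 to 29 at 0 h, 15 to 19 over time in KO, 11 to 14 in NC, 12 to 15 for the difference, 9 to 12 at NC 4 h, 12 to 13 at KO 6 h and 0 for the slope difference. Same-numbered replicates did not deviate together (correlations -0.155 to 0.112 in the steady state, -0.042 to 0.054 in the actinomycin D set), so the numbers are not taken as pairs. With the replicate number as a block, 13 collagens passed in the steady state, 27 at 0 h, 17 and 12 over time in KO and NC, 13 for the difference and 0 for the slope. With this block 66.8% of all genes passed at 0 h and 55.4% over time in KO. For the counts printed without a share of all genes, a shift of the collagens cannot be told apart from 1 of all genes. The alternatives for the difference between labels, for NC 4 h and KO 6 h against 0 h, and for the scaling of the pathway list were chosen after seeing the data. For the 10 collagens with at most 10 counts in a library, no difference was tested.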
